A study of Mus musculus with 25 samples.

Results

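A set of 10 genes coding for proteases of the extracellular matrix and their tissue inhibitors was followed through 25 mouse liver RNA libraries. The genes are the inhibitors Timp1, Timp2 and Timp3, the matrix metalloproteinases Mmp2, Mmp12, Mmp13, Mmp14 and Mmp19, and the secreted proteases Adamts1 and Adamts2. They were named by symbol and chosen with earlier results of these data known, so counts of members called are descriptions. All 10 were found among the 56980 genes of the count table. All mice were male C57BL/6J animals aged 8 weeks at the start and studied for 12 weeks. FAT-MASH is a model of metabolic dysfunction-associated steatohepatitis, a fatty and inflamed liver disease, made with chow rich in fat, sucrose and cholesterol, water with fructose and glucose, and weekly injections of carbon tetrachloride, a liver toxin. The first batch has 4 groups that received this regimen with mannose, a hexose sugar, in the drinking water: 5% prevention and 20% prevention had it for all 12 weeks, and 5% therapy and 20% therapy for the last 6 weeks. The other two groups of that batch had the FAT-MASH regimen alone and normal chow with plain water. In a second batch, mice on normal chow had no mannose, 5% mannose or 20% mannose, and no mouse there had the regimen. Groups hold 3 livers each, except that the second batch has 2 with 5% mannose and 2 without. Diet, sugar water and toxin were always given together, so their effects cannot be told apart.

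The matrix of the liver is held in balance by enzymes that cut it and by inhibitors that block the enzymes. Matrix metalloproteinases need zinc in their active site, most are made as inactive precursors, and TIMP proteins bind the active enzymes. In the injured liver, activated stellate cells deposit collagen and are a known source of TIMP-1 and MMP-2, while macrophages are a known source of MMP-12 and MMP-13. ADAMTS proteases are related secreted enzymes that trim procollagen or cut proteoglycans.

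Positions are from the count table on GRCm39. Timp1 (ENSMUSG00000001131.12) lies at chrX:20736405-20740974 on the plus strand, Timp2 (ENSMUSG00000017466.10) at chr11:118191895-118246566 on the minus strand, and Timp3 (ENSMUSG00000020044.14) at chr10:86136236-86185370 on the plus strand. Mmp12 (ENSMUSG00000049723.15) and Mmp13 (ENSMUSG00000050578.11) share a cluster at chr9:7344381-7369499 and chr9:7272514-7283331, both on the plus strand. Mmp2 (ENSMUSG00000031740.9) lies at chr8:93553919-93580048, Mmp14 (ENSMUSG00000000957.12) at chr14:54669069-54682821 and Mmp19 (ENSMUSG00000025355.8) at chr10:128626779-128636693, all on the plus strand. Adamts1 (ENSMUSG00000022893.15) is at chr16:85590715-85600001 on the minus strand and Adamts2 (ENSMUSG00000036545.10) at chr11:50492911-50698400 on the plus strand. Antisense genes overlap 25.48% of the exon bases of Mmp2, 22.33% of those of Mmp19 (Tmem198b) and 21.28% of those of Timp3 (Syn3). With counting that does not state strand, reads in those overlaps cannot be assigned, and the partner genes had mean counts of 4.0, 133.1 and 42.0 per library.

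The promoters of Mmp13, Timp1 and Adamts1 are shown because the largest fold changes with the regimen and the member calls with mannose fall on these genes. RefSeq's table, on GRCm38.p6, holds the 250 bases before the start of 8 of the 10 members, with Mmp12 at 2 starts. Both strands were searched for the AP-1 motif TGANTCA and for TATAAA, and capitals mark a match.
Mmp13, plus strand, chr9:7272264-7272513: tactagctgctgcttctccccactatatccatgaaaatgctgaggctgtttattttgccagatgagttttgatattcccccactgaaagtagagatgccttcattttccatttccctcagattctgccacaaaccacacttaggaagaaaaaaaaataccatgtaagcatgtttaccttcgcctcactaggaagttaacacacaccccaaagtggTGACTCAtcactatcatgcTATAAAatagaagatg
Timp1, plus strand, chrX:20869916-20870165: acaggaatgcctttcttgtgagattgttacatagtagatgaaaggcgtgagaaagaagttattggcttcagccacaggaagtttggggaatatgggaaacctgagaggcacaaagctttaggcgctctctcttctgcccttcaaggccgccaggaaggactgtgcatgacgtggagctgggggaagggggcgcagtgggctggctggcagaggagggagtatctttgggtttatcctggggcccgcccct
Adamts1, minus strand, chr16:85803114-85803363: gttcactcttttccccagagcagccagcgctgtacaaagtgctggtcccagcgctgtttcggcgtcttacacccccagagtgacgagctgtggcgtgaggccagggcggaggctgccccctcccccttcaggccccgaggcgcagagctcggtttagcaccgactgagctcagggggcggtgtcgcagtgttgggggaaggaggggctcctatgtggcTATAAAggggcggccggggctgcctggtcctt
The Mmp13 window holds an AP-1 match 35 to 29 bases before the start and TATAAA 16 to 11 bases before it. Adamts1 has TATAAA 32 to 27 bases before the start and no AP-1 match, and the Timp1 window has neither. Of the 2 Mmp12 starts, 1 has an AP-1 match 44 to 38 bases before it. Among 32851 promoters of this length, 6.75% hold the AP-1 motif and 12.4% hold TATAAA. A match is a description of letters, and the factors were not measured.

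First-batch libraries held 31298299 to 56010646 counts and second-batch libraries 35971380 to 49752882. Values below are CPM, counts relative to the library's size, scaled by TMM within a batch, and RPKM where genes are compared with each other, since RPKM divides by exon length. Summed CPM of 6 hepatocyte markers was 66280 to 114600 over the 25 libraries with none of the 6 at 0. Replicate livers always differed by more than counting noise, so each counts as 1 replicate, and p-values cover the spread between these livers.

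**Figure D1:**
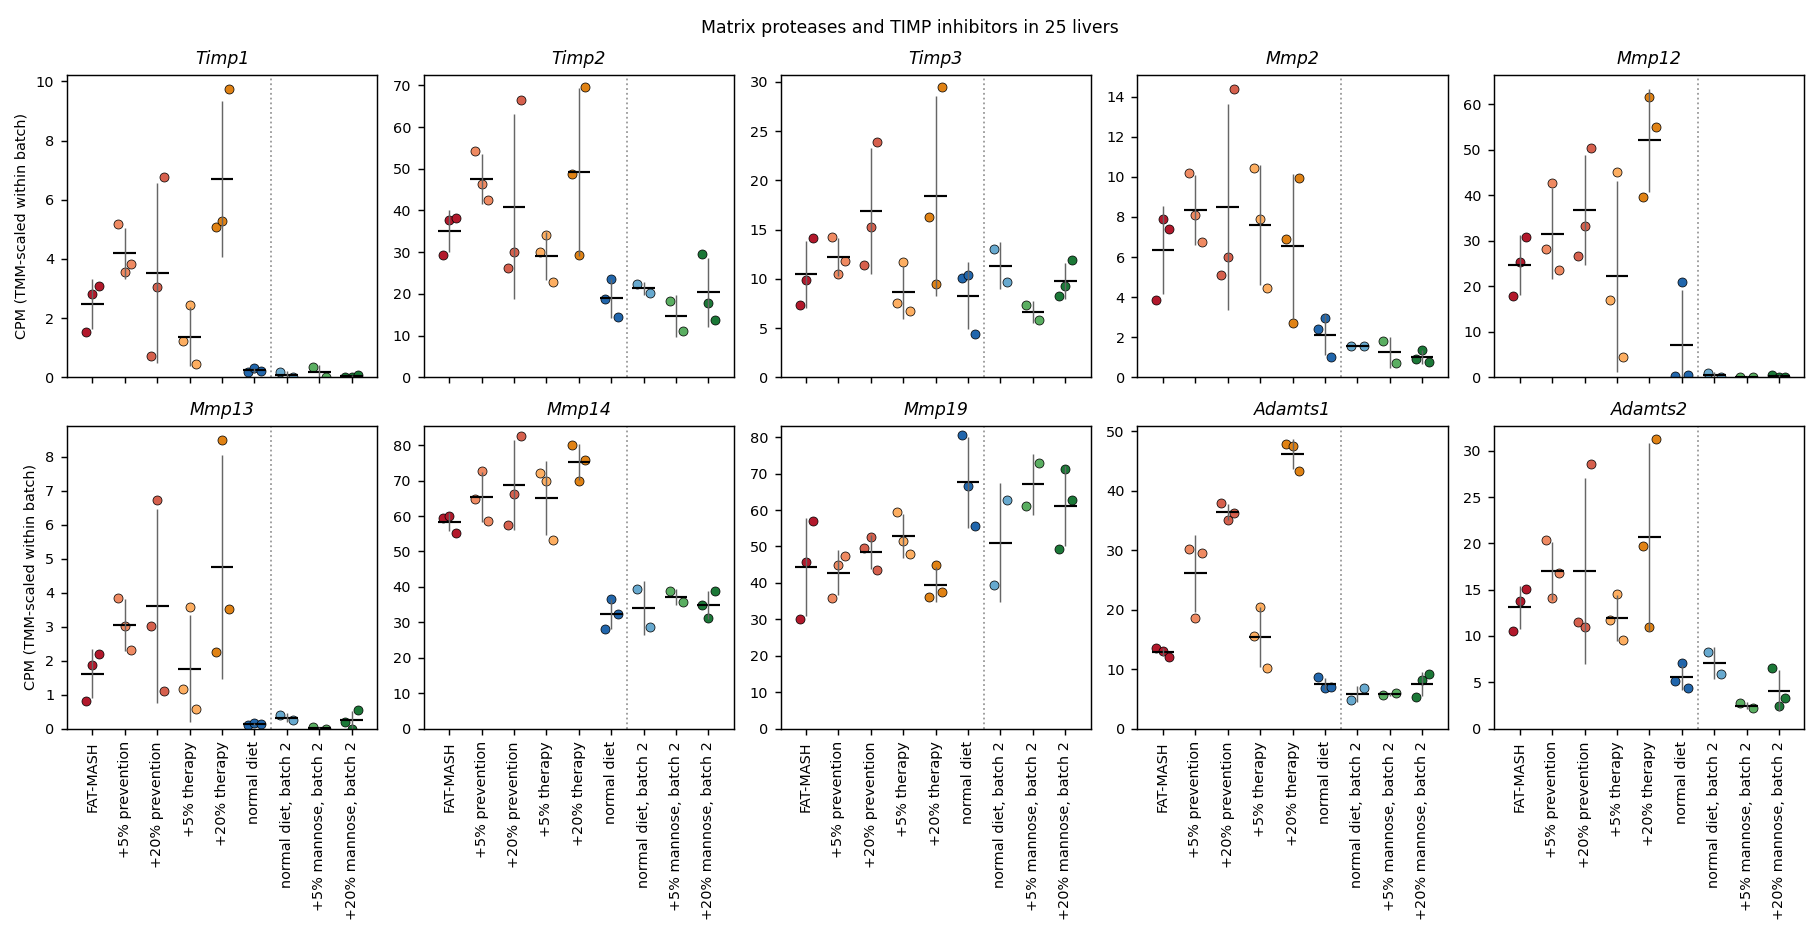
Each panel gives 1 gene in CPM (vertical axis) for every liver, with 1 point per liver, bars for the group mean and lines for ± SD. The dotted line separates the batches. Adamts1 with 20% prevention and 20% therapy (35.1 to 47.8 CPM) lies above every FAT-MASH liver (12.1 to 13.5 CPM).

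Per length, Mmp19, Mmp14 and Timp2 were the most abundant of the 10 transcripts in FAT-MASH livers and in normal-diet livers. In FAT-MASH livers mean levels were 12.5 ± 3.81 RPKM for Mmp19, 9.77 ± 0.429 RPKM for Mmp14 and 9.01 ± 1.27 RPKM for Timp2 (SD, n = 3), which do not separate beyond their spread. In normal-diet livers of the first batch Mmp19 stood at 19.2 RPKM, above Mmp14 at 5.43 RPKM and Timp2 at 4.86 RPKM. Mmp13 was the least abundant member in both groups, at 0.606 ± 0.272 RPKM in FAT-MASH livers and 0.0507 RPKM in normal-diet livers. In 20% therapy livers Mmp14 (12.6 RPKM) and Timp2 (12.6 RPKM) stood level with Mmp19 (11.2 RPKM), followed by Adamts1 at 8.71 RPKM and Timp1 at 7.54 RPKM.

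The first comparison shows what the regimen without mannose changed. In FAT-MASH livers against normal-diet livers of the first batch, Timp1, Mmp2, Mmp13, Mmp14, Adamts1 and Adamts2 were higher and Mmp19 was lower, while Timp2, Timp3 and Mmp12 did not pass the threshold. That is 7 of 10 members at an adjusted p under 0.05 (quasi-likelihood test of edgeR, adjusted by Benjamini-Hochberg over 19571 genes), against 13.7% of all genes tested. By direction, 6 of the 10 were higher, against 7.81% of all genes, and 1 was lower, against 5.92%. The count was 4 of 10 without replicate 1 or 3 of the normal diet or replicate 2 of FAT-MASH. The median log2 fold change was 1.06 over the members and 0.03 over all genes. In 7 of 10 members every FAT-MASH liver lay above every normal-diet liver, as in 17.7% of all genes. In bulk tissue, more cells of a type and more RNA per cell cannot be told apart, here and in the results that follow.

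Among the inhibitors, Timp1, a soluble blocker of many metalloproteinases and a known serum marker of liver fibrosis, stood out. Its levels were 1.53, 2.82 and 3.10 CPM in the 3 FAT-MASH livers and 0.164, 0.314 and 0.210 CPM in the 3 normal-diet livers. The groups do not overlap, and Timp1 was 10.6-fold higher in FAT-MASH livers (log2 fold change 3.40 ± 0.71 SE, adjusted p = 0.00308 by edgeR). The normal-diet livers held 24 Timp1 counts in all and the FAT-MASH livers 284, so the lower level is a low count. From 75.6% to 82.1% of genes with 1 to 20 counts in a library had an even count, as they would if both reads of a pair were counted singly, so the fragments behind a printed count may be fewer than the count. Timp2, which blocks MMP-2 and also takes part in its activation at the cell surface, was at 29.4, 37.6 and 38.3 CPM in FAT-MASH livers and 18.7, 23.7 and 14.3 CPM in normal-diet livers. Those groups do not overlap either, but the log2 fold change of 0.89 ± 0.31 missed the threshold (adjusted p = 0.0627, edgeR). Without other groups in the fit Timp2 passed it (adjusted p = 0.00651, edgeR). Timp3, the inhibitor that binds to the matrix, overlapped between groups, with 7.37, 9.89 and 14.1 CPM in FAT-MASH livers and 10.1, 10.4 and 4.37 CPM in normal-diet livers. Its log2 fold change was 0.32 ± 0.38 (adjusted p = 0.653, edgeR).

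Among the metalloproteinases, Mmp13, the main fibrillar collagenase of rodents, had the largest fold. It was at 0.802, 1.86 and 2.20 CPM in FAT-MASH livers and 0.110, 0.157 and 0.140 CPM in normal-diet livers. The groups are apart, with Mmp13 11.6-fold higher in FAT-MASH livers (log2 fold change 3.54 ± 0.83, adjusted p = 0.00707, edgeR), from 182 counts against 14. Mmp14, the membrane-anchored enzyme that activates MMP-2, had the tightest values, at 59.5, 59.9 and 55.3 CPM in FAT-MASH livers and 28.0, 36.7 and 32.3 CPM in normal-diet livers. It was 1.80-fold higher in FAT-MASH livers (log2 fold change 0.85 ± 0.14, adjusted p = 0.000415, edgeR). Mmp2, the gelatinase that cuts denatured and basement membrane collagen, was at 3.84, 7.88 and 7.38 CPM in FAT-MASH livers and 2.38, 2.98 and 1.01 CPM in normal-diet livers. No FAT-MASH liver fell within the normal-diet range, and Mmp2 was 2.95-fold higher (log2 fold change 1.56 ± 0.49, adjusted p = 0.0381, edgeR). That call was lost when any of 4 livers was left out, namely normal-diet replicates 1 and 3 and FAT-MASH replicates 2 and 3, where the adjusted p was 0.0844 to 0.16.

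Mmp12, the macrophage elastase, was split by 1 normal-diet liver. It was at 17.8, 25.4 and 30.9 CPM in FAT-MASH livers, and at 0.219, 21.0 and 0.420 CPM in normal-diet livers, so replicate 2 of the normal diet lies inside the FAT-MASH range. The log2 fold change was 1.75 ± 0.89 (adjusted p = 0.219, edgeR) with that liver and 6.29 (adjusted p = 0.00014) without it. The same liver held 42.5 CPM of Gpnmb, a marker of lipid-associated macrophages, against 0.164 and 0.140 CPM in the other normal-diet livers and 25.6, 47.1 and 68.1 CPM in FAT-MASH livers. Over the 18 first-batch livers Gpnmb was the gene nearest in pattern to Mmp12. That ranking includes this liver, so it is not separate evidence. Trem2, another such marker, was at 3.34 CPM in that liver, below the 8.45, 14.4 and 20.0 CPM of FAT-MASH livers. The 10 listed macrophage markers summed to 304 CPM there, against 704 to 886 CPM in FAT-MASH livers. Without that liver the FAT-MASH and normal-diet groups do not overlap in Mmp12.

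Mmp19, which cuts basement membrane proteins, moved the other way. It was at 30.2, 45.7 and 57.0 CPM in FAT-MASH livers and 80.6, 66.7 and 55.7 CPM in normal-diet livers, with 1 FAT-MASH liver above the lowest normal-diet liver. The log2 fold change was -0.61 ± 0.18 (adjusted p = 0.0302, edgeR). The call was lost on leaving out replicate 1 or 2 of either group, and when only these 2 groups were fitted, with adjusted p-values of 0.0583 to 0.144.

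Both ADAMTS members were higher in FAT-MASH livers. Adamts1, which cuts the proteoglycans versican and aggrecan, was at 13.5, 13.1 and 12.1 CPM in FAT-MASH livers and 8.66, 6.84 and 7.03 CPM in normal-diet livers (log2 fold change 0.78 ± 0.20, adjusted p = 0.0134, edgeR). Adamts2, the enzyme that removes the amino-terminal propeptide of fibrillar procollagen, was at 10.5, 13.8 and 15.0 CPM in FAT-MASH livers and 5.10, 7.05 and 4.41 CPM in normal-diet livers. Neither gene's groups overlap, and the Adamts2 log2 fold change was 1.24 ± 0.36 (adjusted p = 0.0266, edgeR). Leaving out normal-diet replicate 2 or 3 ended the Adamts1 call (adjusted p 0.0637 and 0.0575). The Adamts2 call ended without normal-diet replicate 1 or 3, and also without FAT-MASH replicate 2 or 3 (adjusted p 0.0661 to 0.108).

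Cell type markers moved beside these members, and their part in the results was not tested. Summed CPM of 10 markers of recruited and lipid-associated macrophages was 704 to 886 in FAT-MASH livers and 182 to 304 in normal-diet livers, with 6 of 10 higher and none lower. Neutrophil markers summed to 16.3 to 18.4 CPM in FAT-MASH livers and 5.66 to 9.04 CPM in normal-diet livers, with at most 1 of 6 at 0. The 12 markers of stellate cells and fibroblasts summed to 252 to 266 CPM in FAT-MASH livers and 232 to 257 CPM in normal-diet livers, with 4 higher and 1 lower. Resident Kupffer cell markers, 3 of 6 higher, summed to 372 to 630 CPM in FAT-MASH livers and 141 to 202 CPM in normal-diet livers. Among all genes 7.81% were higher and 5.92% lower in this comparison.

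**Figure D2:**
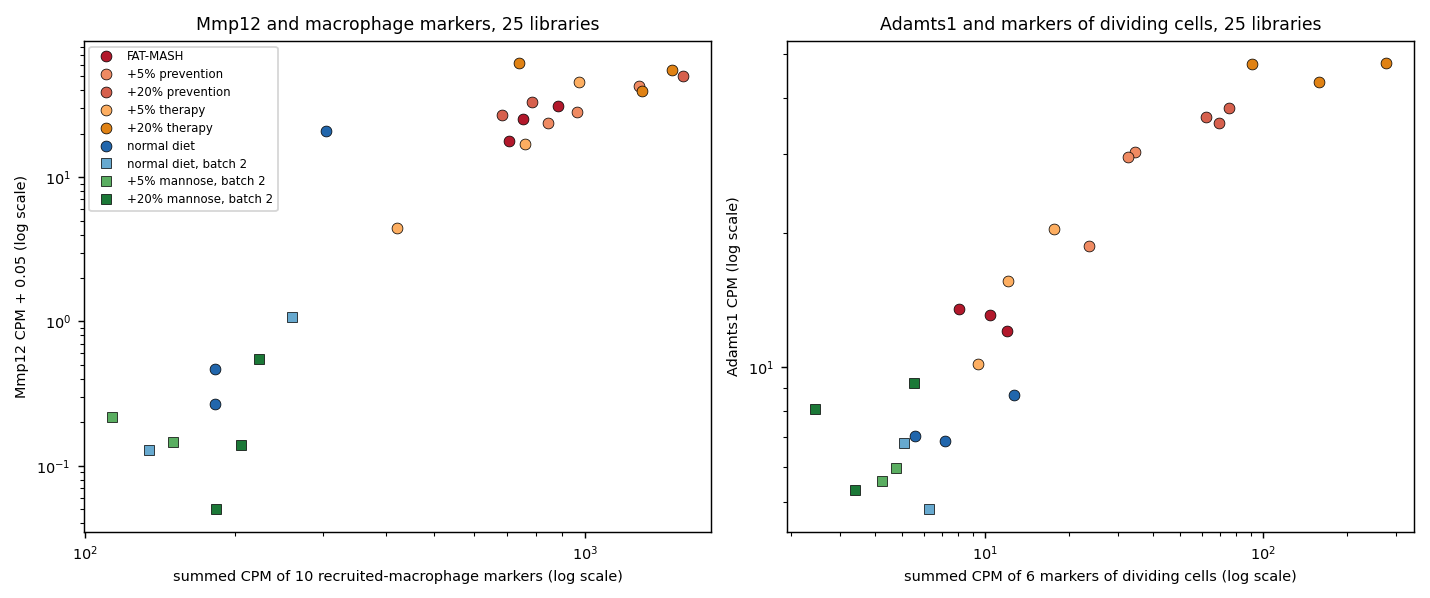
Left, Mmp12 (CPM + 0.05) against the summed CPM of 10 recruited-macrophage markers, and right, Adamts1 against the summed CPM of 6 markers of dividing cells, on log axes with 1 point per liver. The normal-diet liver at 21.0 CPM of Mmp12 stands apart from the other normal-diet livers, and the 20% therapy livers lie highest on both axes of the right panel.

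The next question was whether mannose changed the members in mice on the regimen. Adamts1 was higher with 5% prevention, 20% prevention and 20% therapy than with the regimen alone, and it was the only one of the 10 members to pass the threshold in any of those 3 comparisons. With 5% therapy none of the 10 passed. These 4 comparisons share the same 3 FAT-MASH livers.

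In 5% prevention livers Adamts1 was at 30.2, 18.7 and 29.5 CPM, against 13.5, 13.1 and 12.1 CPM in FAT-MASH livers. The groups do not overlap, and the level was 2.03-fold higher (log2 fold change 1.02 ± 0.20, adjusted p = 0.00915, edgeR). That is 1 of 10 members, against 2.27% of all genes tested. It rested on replicate 1 of 5% prevention, without which the log2 fold change was 0.90 and the adjusted p was 0.0623.

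In 20% prevention livers Adamts1 was at 37.8, 35.1 and 36.3 CPM, 2.83-fold above FAT-MASH livers (log2 fold change 1.50 ± 0.20, adjusted p = 5.66e-05, edgeR). Here too 1 of 10 members passed, against 15.1% of all genes, so the members' share is near the background. In 20% therapy livers Adamts1 was at 47.8, 47.5 and 43.3 CPM, 3.59-fold above FAT-MASH livers (log2 fold change 1.84 ± 0.20, adjusted p = 1.99e-06, edgeR). That is 1 of 10 members against 21.4% of all genes. Every 20% therapy liver exceeded every 20% prevention liver, and every 20% prevention liver exceeded every 5% prevention liver. Neither difference passed the threshold (adjusted p = 0.514 for 20% prevention against 20% therapy and 0.254 for 20% against 5% prevention, edgeR). In 5% therapy livers Adamts1 was at 15.6, 20.4 and 10.2 CPM, which spans the FAT-MASH range (log2 fold change 0.25 ± 0.20, adjusted p = 0.917, edgeR).

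Markers of dividing cells moved with Adamts1, and their part in its result was not tested. The 6 genes summed to 23.7 to 34.7 CPM with 5% prevention, 62.0 to 75.2 CPM with 20% prevention, 9.43 to 17.7 CPM with 5% therapy and 90.9 to 276 CPM with 20% therapy, against 8.03 to 12.0 CPM in FAT-MASH livers. Cholangiocyte markers summed to 175 to 285 CPM with 5% prevention, 206 to 531 CPM with 20% prevention, 89.5 to 134 CPM with 5% therapy and 166 to 755 CPM with 20% therapy, against 98.0 to 119 CPM in FAT-MASH livers. Hepatocyte markers were lowest with 20% therapy, at 66280 to 74940 CPM, against 91960 to 102900 CPM in FAT-MASH livers. No gene of the dividing, cholangiocyte or hepatocyte lists was at 0 in these groups. Spp1, on the cholangiocyte list, is also on the list of recruited and lipid-associated macrophages.

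**Figure D3:**
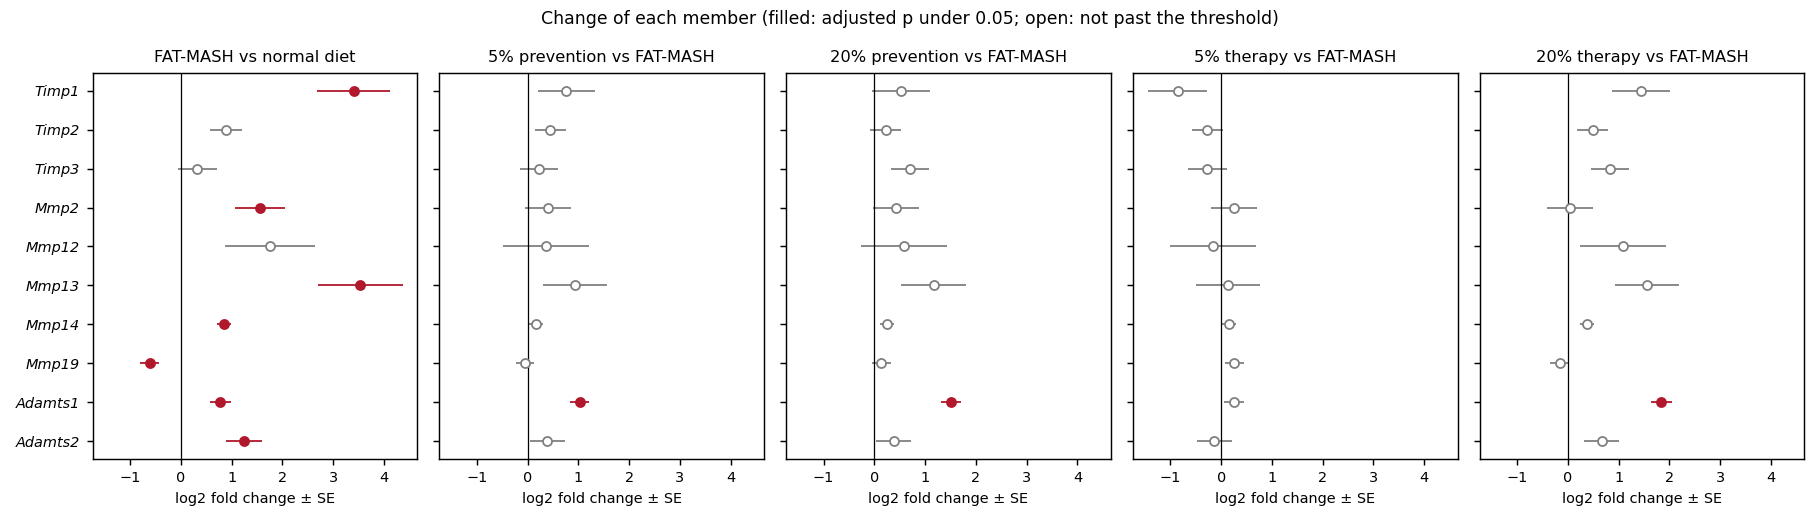
Log2 fold change (horizontal axis) with its SE for each of the 10 genes in 5 comparisons, filled where the adjusted p is under 0.05. There are 7 genes filled for FAT-MASH against normal diet, and Adamts1 alone for 5% prevention, 20% prevention and 20% therapy.

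Timp1 and Mmp13 had scattered levels with 20% mannose. Neither passed the threshold in either 20% group with all first-batch groups in the fit. In 20% therapy livers Timp1 was at 5.08, 5.27 and 9.74 CPM, above all FAT-MASH livers (1.53, 2.82 and 3.10 CPM). Its log2 fold change of 1.44 ± 0.57 missed the threshold (adjusted p = 0.0805, edgeR). Without other groups in the fit Timp1 passed it (adjusted p = 0.0139, edgeR). In 20% prevention livers Timp1 was at 0.726, 3.06 and 6.77 CPM, a spread that spans every FAT-MASH liver (log2 fold change 0.52 ± 0.57, adjusted p = 0.61, edgeR). Without replicate 3 of 20% prevention that value turned to -0.37. In 5% prevention livers Timp1 was at 5.18, 3.56 and 3.82 CPM, above all FAT-MASH livers (log2 fold change 0.76 ± 0.57, adjusted p = 0.578, edgeR). In 5% therapy livers it was at 1.22, 2.43 and 0.459 CPM, with 2 of 3 livers below the lowest FAT-MASH liver (log2 fold change -0.86 ± 0.59, adjusted p = 0.902, edgeR).

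Mmp13 was at 2.25, 8.49 and 3.51 CPM with 20% therapy and 3.02, 6.72 and 1.09 CPM with 20% prevention, against 0.802, 1.86 and 2.20 CPM in FAT-MASH livers. The therapy livers lie above the FAT-MASH livers and the prevention livers overlap them. Neither passed, with log2 fold changes of 1.56 ± 0.64 (adjusted p = 0.0889) and 1.17 ± 0.63 (adjusted p = 0.246) by edgeR. With 5% prevention it was at 3.84, 3.02 and 2.31 CPM, above every FAT-MASH liver (log2 fold change 0.93 ± 0.64, adjusted p = 0.535, edgeR).

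None of the other metalloproteinases and inhibitors passed the threshold against FAT-MASH in either 20% group with all first-batch groups in the fit. With 20% therapy Mmp14 was at 80.2, 70.0 and 75.8 CPM, above all FAT-MASH livers, with a log2 fold change of 0.37 ± 0.14 (adjusted p = 0.063, edgeR). DESeq2 put it past the threshold (adjusted p = 0.0469). Mmp12 was at 39.6, 61.6 and 55.1 CPM with 20% therapy, also above all FAT-MASH livers (log2 fold change 1.08 ± 0.84, adjusted p = 0.415, edgeR). Without other groups in the fit, Mmp12 and Mmp14 passed for 20% therapy (adjusted p = 0.00441 and 0.0172, edgeR). Timp3 was at 16.3, 9.46 and 29.5 CPM with 20% therapy and 11.4, 15.3 and 23.9 CPM with 20% prevention, and both groups overlap FAT-MASH livers. Its log2 fold changes were 0.82 ± 0.37 (adjusted p = 0.132) and 0.70 ± 0.37 (adjusted p = 0.24) by edgeR. In all, 5 of 10 members had 20% therapy livers wholly above FAT-MASH livers, against 18.1% of all genes, and 5 of 10 had an unadjusted p under 0.05, against 32.7% of all genes. Without replicate 2 of 20% therapy 3 of 10 passed, Timp3 among them (adjusted p = 0.0325). Macrophage markers summed to 738 to 1497 CPM with 20% therapy and 704 to 886 CPM in FAT-MASH livers, and their part in the Mmp12 values was not tested. That sum includes Spp1, which is also on the cholangiocyte list. Of the same list, Gpnmb was at 26.2, 22.5 and 50.1 CPM with 20% therapy and 25.6, 47.1 and 68.1 CPM in FAT-MASH livers. Trem2 was at 11.8, 12.2 and 21.0 CPM against 8.45, 14.4 and 20.0 CPM. Both overlap between the groups, and the other markers are not given singly.

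The scaling matters for the 20% groups. With library totals alone in place of TMM, the median log2 fold change of all genes moved to 0.303 for 20% therapy and 0.20 for 20% prevention against FAT-MASH. The genes called were then 5407 higher and 1113 lower for 20% therapy, against 1989 higher and 2206 lower with TMM. For 20% prevention they were 3066 higher and 949 lower, against 1336 higher and 1616 lower with TMM. Adamts1 stayed past the threshold under both scalings in both comparisons. Timp1, Timp3, Mmp13 and Mmp14 passed it for 20% therapy with library totals alone, with log2 fold changes of 1.74, 1.13, 1.84 and 0.68, of which 0.303 is the shift of the median gene.

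With 5% therapy against the regimen alone, 0 of 10 members passed, against 0.0358% of all genes, and none had an unadjusted p under 0.05 by edgeR, against 6.23% of all genes. DESeq2 also called 0 of 10. The members' median log2 fold change was 0.00, with 5 values above 0 and 5 below.

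Against the normal diet of the same batch, 6 to 10 of the 10 members passed the threshold in each mannose group. These comparisons share the 3 normal-diet livers with the first. With 5% prevention 8 of 10 passed, against 22.4% of all genes, with 7 higher (12.3% of all genes) and 1 lower (10.1%). With 20% prevention 9 of 10 passed, against 33.3% of all genes, with 8 higher (18.2%) and 1 lower (15.1%). With 5% therapy 6 of 10 passed, all higher, against 12.9% of all genes in either direction, 7.04% higher and 5.89% lower. With 20% therapy all 10 passed, against 36.1% of all genes, with 9 higher (19.4%) and Mmp19 lower (16.7%).

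Timp1 was higher than in normal-diet livers by log2 4.16 ± 0.71 with 5% prevention, 3.92 ± 0.71 with 20% prevention, 2.54 ± 0.72 with 5% therapy and 4.84 ± 0.72 with 20% therapy (adjusted p = 0.00035, 0.000296, 0.0247 and 2.92e-05, edgeR). Mmp13 was higher by log2 4.47, 4.70, 3.67 and 5.10 in the same order of groups. The Timp1 and Mmp13 calls with 5% therapy were lost without replicate 2 of that group (adjusted p 0.181 and 0.0594). Timp1 also lost its 5% therapy call without any 1 of the 3 normal-diet livers (adjusted p 0.052 to 0.0915).

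Mmp14 was 2.01-fold to 2.33-fold higher over the 4 groups, and no mannose liver fell to the normal-diet range. Adamts1 was higher by log2 1.80, 2.28, 1.03 and 2.62 with 5% prevention, 20% prevention, 5% therapy and 20% therapy. Adamts2 was higher by log2 1.62, 1.62, 1.10 and 1.90 in that order. Its 5% therapy value lay at the threshold (adjusted p = 0.0493, edgeR) and DESeq2 did not call it (adjusted p = 0.0506). Mmp2 was higher by log2 1.96, 1.99, 1.81 and 1.60, and Mmp19 differed by -0.66, -0.48, -0.35 and -0.78, with 5% therapy not past the threshold (adjusted p = 0.232, edgeR). With library totals alone Mmp19 was not called in the other three groups (log2 fold changes -0.49, -0.23 and -0.41).

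Timp2 passed with 5% prevention, 20% prevention and 20% therapy (log2 differences 1.33, 1.11 and 1.38). Without replicate 3 of 20% prevention its value there was 0.56 (adjusted p = 0.128, edgeR), and without normal-diet replicate 3 it was 0.93 (adjusted p = 0.0531). Timp3 passed with 20% prevention and 20% therapy only (log2 differences 1.02 and 1.15, adjusted p = 0.0442 and 0.0231). The 20% prevention call was lost with DESeq2 (adjusted p = 0.0575), and both were lost without replicate 3 of the mannose group (adjusted p = 0.232 and 0.223). Mmp12 passed with 20% therapy (log2 difference 2.83, adjusted p = 0.0198) and not with the other three. Without normal-diet replicate 2 its difference was 6.64 with 5% prevention, 6.87 with 20% prevention, 6.14 with 5% therapy and 7.38 with 20% therapy, all past the threshold (largest adjusted p = 2e-04, edgeR).

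Several of these calls against normal diet rested on single livers. Timp3 lost its 20% prevention call without replicate 1 or 3 of the normal diet or replicate 2 or 3 of 20% prevention (adjusted p 0.0539 to 0.232), and its 20% therapy call also without normal-diet replicate 3 (adjusted p = 0.117). Mmp2 lost its 5% therapy call without normal-diet replicate 3 or 5% therapy replicate 1 or 2 (adjusted p 0.0527 to 0.0912), and its 20% therapy call without replicate 3 of either group (adjusted p 0.0719 and 0.0937). Mmp12 lost its 20% therapy call without normal-diet replicate 1 or 3 (adjusted p 0.0547 and 0.0661). Mmp19 lost its 5% prevention call without replicate 1 of either group (adjusted p 0.0669 and 0.0673). Its 20% prevention call was lost without normal-diet replicate 1 or 2 or any 20% prevention liver (adjusted p 0.0634 to 0.204). Adamts2 lost its 5% therapy call without any normal-diet liver or without 5% therapy replicate 1 or 2 (adjusted p 0.0525 to 0.185). With 5% therapy the count of members called was 3 without normal-diet replicate 3 and 2 without 5% therapy replicate 2. In none of the mannose groups did leaving out a liver end the call of Mmp14 or Adamts1.

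Dose and timing were compared directly. With 20% against 5% therapy, 2 of 10 members passed, against 17.7% of all genes, so the share is near the background. Adamts1 was at 47.8, 47.5 and 43.3 CPM with 20% therapy and 15.6, 20.4 and 10.2 CPM with 5% therapy, 3.01-fold higher (log2 1.59 ± 0.20, adjusted p = 1.64e-05, edgeR). Timp1 was at 5.08, 5.27 and 9.74 CPM with 20% therapy and 1.22, 2.43 and 0.459 CPM with 5% therapy, 4.93-fold higher (log2 2.30 ± 0.59, adjusted p = 0.0101, edgeR). Both genes separate the doses without overlap. The Timp1 call was lost without replicate 3 of 5% therapy or replicate 3 of 20% therapy (adjusted p 0.0522 and 0.0508). Timp3 lay just outside the threshold (log2 1.09 ± 0.38, adjusted p = 0.0514, edgeR) and passed it without replicate 2 of either group (adjusted p 0.0333 and 0.0111). The count of members called was then 4 without replicate 2 of 5% therapy and 5 without replicate 2 of 20% therapy.

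With 20% against 5% prevention 0 of 10 members passed by edgeR, against 0.445% of all genes, with 1 at an unadjusted p under 0.05 (13.9% of all genes) and 0 by DESeq2. Adamts1 was the member with separate groups, 37.8, 35.1 and 36.3 CPM with 20% against 30.2, 18.7 and 29.5 CPM with 5% (log2 0.48 ± 0.19, adjusted p = 0.254, edgeR). Prevention against therapy at 20% gave 0 of 10 by edgeR and by DESeq2, against 0.0818% of all genes, with none at an unadjusted p under 0.05 (11.8% of all genes). There Adamts1 was lower in every prevention liver (log2 -0.34 ± 0.19, adjusted p = 0.514, edgeR) and Timp1 differed by -0.92 ± 0.56 (adjusted p = 0.569). Prevention against therapy at 5% gave 0 of 10 by edgeR, against 0.194% of all genes, with 3 at an unadjusted p under 0.05 (12.2% of all genes) and 1, Adamts1, by DESeq2. Timp1 was higher in every 5% prevention liver than in any 5% therapy liver (log2 1.62 ± 0.59, adjusted p = 0.266, edgeR). Adamts1 overlapped by 1 liver in that comparison (log2 0.77 ± 0.20, adjusted p = 0.103, edgeR) and passed without replicate 2 of either group (adjusted p 0.0339 and 0.0195).

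Mannose on the normal diet was measured in the second batch. With 20% mannose Adamts1 was at 5.32, 8.08 and 9.24 CPM, against 4.82 and 6.80 CPM without (log2 0.38 ± 0.27, adjusted p = 0.951, edgeR). The groups overlap, and all 7 livers of that batch lie below the 12.1 CPM of the lowest FAT-MASH liver, although the batches were scaled separately. Timp1 was near 0 throughout, with 8 counts in 2 livers without mannose, 14 in 2 livers with 5% and 4 in 3 livers with 20%, and it did not reach the count filter. Of the 9 members tested, 0 passed with 20% mannose by edgeR or DESeq2, against 0.00542% of all genes, and 0 had an unadjusted p under 0.05, against 5.77% of all genes.

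With 5% mannose on the normal diet 0 of 9 members passed by edgeR or DESeq2, against 0% of 18462 genes, with 2 at an unadjusted p under 0.05. Over all genes edgeR gave 1039 at an unadjusted p under 0.05, or 5.63%, and DESeq2 called 42. Those 2 members were Adamts2, at 2.74 and 2.22 CPM with mannose and 8.30 and 5.87 CPM without (log2 -1.51 ± 0.44, adjusted p = 0.84), and Timp3, at 7.37 and 5.84 CPM with mannose and 13.02 and 9.63 CPM without (log2 -0.78 ± 0.25, adjusted p = 0.84). In 4 of the 9 members both 5% livers lay below both plain-diet livers, against 18.3% of all genes in that direction. With 2 livers in each of these groups, the precision is low.

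The difference between diets was tested as 20% prevention minus FAT-MASH in the first batch, less 20% mannose minus plain normal diet in the second, so that each step stays within a batch. Adamts1 had the only member call, a difference of log2 1.12 ± 0.32 (adjusted p = 0.0354, edgeR over 21373 genes), which is 1 of 10 members against 5.67% of all genes. The Adamts1 step was 1.50 on the regimen and 0.38 on the normal diet. The call was lost when any of 8 of the livers involved was left out (adjusted p 0.0526 to 0.173). Adamts2 had a difference of 1.17 ± 0.55 (adjusted p = 0.225). Diet and batch are confounded for mannose on the normal diet except through the plain-diet livers, and a batch that altered the effect of mannose cannot be told apart from diet.

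Inhibitors and metalloproteinases were also set side by side as sums per length, as a description with no test. The ratio of summed Timp1, Timp2 and Timp3 to the summed 5 Mmp members was 0.453 to 0.476 in FAT-MASH livers and 0.206 to 0.267 in normal-diet livers of the same batch. It was 0.500 to 0.733 with 5% prevention, 0.299 to 0.730 with 20% prevention, 0.288 to 0.357 with 5% therapy and 0.396 to 0.922 with 20% therapy. All 3 livers with 5% therapy lay between the FAT-MASH and the normal-diet values of the first batch. Those with 20% mannose spread across the FAT-MASH range. In the second batch the ratio was 0.276 to 0.406 without mannose, 0.133 to 0.246 with 5% and 0.206 to 0.426 with 20%. The second-batch range without mannose encloses the 5% therapy values.

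**Figure D4:**
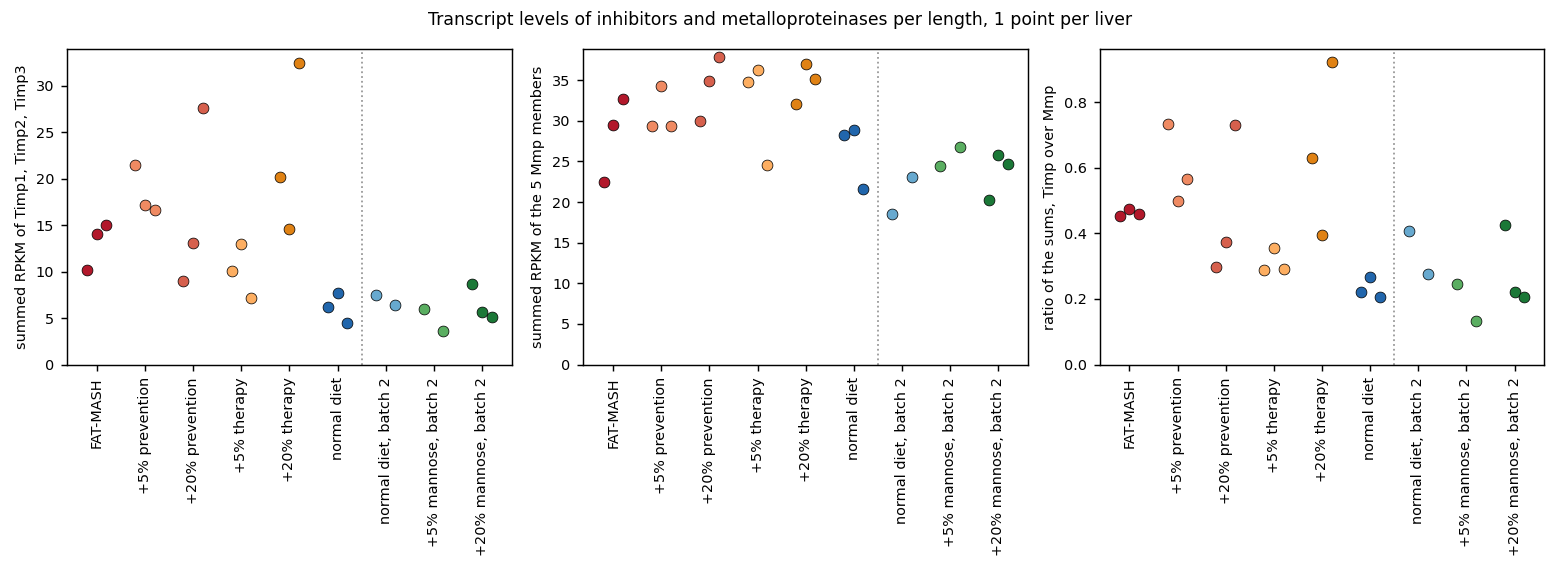
Summed RPKM of the 3 inhibitors (left), summed RPKM of the 5 metalloproteinases (middle) and their ratio (right), 1 point per liver, with the dotted line between batches. The ratio was 0.453 to 0.476 in FAT-MASH livers and 0.206 to 0.267 in normal-diet livers of the first batch.

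The rest of the protease network was counted from lists of related genes. Against normal diet, FAT-MASH livers had 4 of 12 other metalloproteinases higher and none lower, where 7.81% of all genes were higher and 5.92% lower. Mmp27 was higher by log2 2.39 ± 0.45 and Mmp23 by 1.35 ± 0.36. Mmp7, matrilysin of epithelia, was at 0.524 CPM in FAT-MASH livers and 0.0648 CPM in normal-diet livers, which held 7 counts in all. Mmp24 had 18, 0 and 4 counts in FAT-MASH livers and 0 in all normal-diet livers. Most of its counts came from 1 liver, and another FAT-MASH liver was at 0 like the normal-diet livers. With 3 counts per library in place of the normal-diet zeros alone, the FAT-MASH mean was 1.7-fold higher, which is not a lower bound. Of 12 other ADAMTS genes 2 were higher, Adamts12 (log2 2.26) and Adamts5, an aggrecanase (log2 1.50), and none was lower. The list medians were 1.03 and 0.70, against 0.03 for all genes.

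Among other inhibitors, Serpine2, protease nexin 1, fell by 2.26 on the log2 scale in FAT-MASH livers (adjusted p = 4.85e-05, edgeR). Of 6 genes of the plasminogen system 1 rose, Plaur, the urokinase receptor (log2 1.40). Of 8 ADAM genes 1 rose, Adam10 (log2 0.43), and of 6 cathepsins 3 rose, Ctsd, Ctss and Ctsb (log2 0.57, 1.37 and 0.42). Among all genes 7.81% were higher and 5.92% lower in this comparison. In lists of 6 and 8 genes, a count of 1 is near that background. Of 15 genes of collagen processing 3 rose and 2 fell, including Loxl1 (log2 1.42) and the collagen chaperone Serpinh1 (log2 0.65), with Loxl4 at -2.26 and Bmp1, the carboxy-terminal procollagen protease, at -0.39. Of 16 substrates of the proteases 9 rose and none fell, led by Col5a2, Lum, Col1a2 and Col3a1 (log2 2.17, 1.81, 1.91 and 1.92).

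With 20% therapy against FAT-MASH, 1 of 12 other metalloproteinases rose, Mmp7, at 8.23 ± 5.49 CPM with 20% therapy and 0.524 ± 0.0239 CPM in FAT-MASH livers (log2 3.97 ± 0.62, adjusted p = 0.000107, edgeR). Of 12 other ADAMTS genes 3 rose, among them Adamts15 and Adamts9 (log2 1.66 and 1.62), and 2 fell, Adamts7 (-1.25) and Adamts13, which cuts von Willebrand factor (-0.98). Plau, the urokinase protease, and Plaur were higher (log2 1.71 and 1.72). Plg, plasminogen, which hepatocytes make, fell by 0.97 on the log2 scale, and Serpinf2, the plasmin inhibitor, fell by 0.58. Of 15 genes of collagen processing 4 rose, including Lox, Loxl2 and Serpinh1 (log2 1.84, 1.12 and 1.06), and Bmp1 fell by 0.89. Of 16 substrates 4 rose, Col4a1, Col4a2, Col6a3 and the Adamts1 substrate Vcan (log2 1.28, 1.01, 1.41 and 2.32). Among all genes 10.2% rose and 11.3% fell in that comparison, so the share of other metalloproteinases that rose is near the background.

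With 20% prevention against FAT-MASH the counts were 1 higher of 12 other metalloproteinases (Mmp7, log2 2.73), and 2 higher and 1 lower of 12 other ADAMTS genes (Adamts9 1.28, Adamts15 1.12, Adamts13 -0.91), against 6.83% of all genes higher and 8.26% lower. Plau rose (log2 1.40), while Plg fell by 0.65, Serpinf2 by 0.64 and Bmp1 by 0.87 on the log2 scale. Of 16 substrates Vcan (log2 1.73) and Col4a1 (0.79) rose. With 5% prevention the listed genes past the threshold were Bmp1 (-0.60) and Plg (-0.48), and with 5% therapy there were none. Listed genes that differed between the diets in their step with 20% mannose included Bmp1 (-0.98), Plg (-0.64) and Adamts15 (1.69).

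Genes whose pattern over the 18 first-batch livers lay nearest to the 3 widest-ranging members were ranked by root mean square difference of centred log2 CPM, among 10589 genes. Group means of Mmp12 span 5.22 on the log2 scale, and its nearest genes were Gpnmb (0.83), Trem2 (1.04) and Capg (1.18). Timp1 spans 4.57 and its nearest were Thbs1 (0.72), Cx3cr1 (0.73) and Shc2 (0.73). Mmp13 spans 4.50 and its nearest were 2010003K11Rik (0.70), Ttc39a (0.71) and Igf2bp2 (0.75). Adamts2 and Timp2 differed by 0.20 on that measure. These are descriptions over livers that share diet and batch.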

How the data were processed

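Liver poly-A RNA of 25 mice was sequenced. Per the submitters' processing notes, the authors used STAR on GRCm39 and then featureCounts 2.0.6 for gene counts, although the file headers name featureCounts 2.0.1 with GENCODE release 31. The deposited values are whole-number counts that the authors had not normalized, per the file headers. No option for strand, read pairs or several alignments is given there. Low counts, from 1 to 20, were even for 75.6% to 82.1% of genes per library. The floor of 3 counts covers counting error only.

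Tests used edgeR 4.0.16 under R 4.3.3 (quasi-likelihood, TMM scaling, filterByExpr, Benjamini-Hochberg adjustment over all genes tested, threshold 0.05). The 18 first-batch libraries (19571 genes), the 7 second-batch libraries (18462 genes) and all 25 (21373 genes, a coefficient for each of 9 groups within batches) were fitted apart. The batches are those of the labels. The lowest chi-square per degree of freedom between replicates was 19.3. DESeq2 1.42.0, RLE size factors, library totals alone, no filter, only the groups compared, the replicate block and leaving out each library were the alternatives.

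The members, lists and rules were chosen with earlier results of these data known. At most 4 genes of a list, those with the smallest p, are named. A result on 1 listed gene is not reported here. Like-pattern genes needed a mean of 5 CPM, and log2 CPM used a prior count of 2. On simulated counts for FAT-MASH against normal diet (18942 genes) 77% of 2-fold and 96% of 4-fold changes were recovered, and 5.5% of calls were unchanged genes. For 20% mannose on the normal diet (17443 genes) it was 66% and 97%, with 10.9%. Changes were planted upward only, in 100 genes of each fold, and not in genes of the lowest levels. The rates therefore need not hold for Timp1 and Mmp13 at their normal-diet levels.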

Additional observations from a re-analysis of the deposited data

Results flagged for a closer look

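The step in Adamts1 with 20% mannose was larger on the FAT-MASH regimen than on the normal diet by 1.12 ± 0.32 on the log2 scale (adjusted p = 0.0354 by edgeR's quasi-likelihood test over 21373 genes). It was singled out because the difference between the diets was itself tested. On the regimen Adamts1 was at 37.8, 35.1 and 36.3 CPM with 20% prevention and 13.5, 13.1 and 12.1 CPM without mannose. On the normal diet it was at 5.32, 8.08 and 9.24 CPM with 20% mannose and 4.82 and 6.80 CPM without. On the regimen every 20% prevention liver lay above every FAT-MASH liver, and the livers on the normal diet overlap. Leaving out 1 library at a time gave 0.86 to 1.36, and the call was lost for 8 libraries, with 0.86 (adjusted p = 0.173) without replicate 5 of the second-batch normal diet.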

How the results depend on the processing

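Over 16 comparisons the count of members past the threshold was recomputed 194 times, and 159 counts lay within 1.5 times the reported one. With no filter on low counts the counts were 2 instead of 1 for 5% prevention against FAT-MASH, 4 instead of 1 for 20% prevention, 8 instead of 1 for 20% therapy, 8 instead of 2 for 20% against 5% therapy, 1 instead of 0 for 20% against 5% prevention, 4 instead of 0 for 5% prevention against 5% therapy, 1 instead of 0 for 20% prevention against 20% therapy, 1 instead of 0 for 5% mannose on the normal diet, and 4 instead of 1 for the difference between diets. Over all genes, the fit with no filter called 4365 of 33409 for 20% therapy against FAT-MASH and 3835 for 20% against 5% therapy. That fit also gave Mmp12 an adjusted p of 4.35e-30 (edgeR) for FAT-MASH against normal diet, where the groups overlap. The main fit gave 0.219 there, so the counts with no filter are not an equal alternative. With library totals alone the counts of members were 5 for 20% therapy against FAT-MASH and 6 for 20% against 5% therapy. With DESeq2 they were 2 for 20% therapy against FAT-MASH and 1 for 5% prevention against 5% therapy, and with only the groups compared 4 for 20% therapy against FAT-MASH. The causes were not tested.

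Leaving out 1 replicate at a time gave 4 to 6 for FAT-MASH against normal diet, 0 to 1 for 5% prevention, 1 to 3 for 20% therapy against FAT-MASH, 2 to 6 for 5% therapy against normal diet, 1 to 5 for 20% against 5% therapy, 0 to 1 for 5% prevention against 5% therapy and 0 to 1 for the difference between diets. Timp1 with 20% prevention against FAT-MASH was the only named value that changed sign, at -0.37 without replicate 3 of 20% prevention (range -0.37 to 0.99). Of 905 recomputed named values 792 kept direction and side of the threshold, 70 lost the call and 42 gained one. Over all members and comparisons 70 of 1917 values changed sign, none of a value called in the report.

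Replicate numbers appear in every first-batch group, but samples of a number did not deviate together (45 pairs, correlations -0.162 to 0.179, median -0.017, 1 over 0.1, and 11 pairs in which the library's own number correlated best), so they share only a number. With the replicate block the counts were 6 for FAT-MASH against normal diet, 1, 1, 0 and 1 for 5% prevention, 20% prevention, 5% therapy and 20% therapy against FAT-MASH, and 9, 8, 5 and 10 for these against normal diet. In the second batch the column names, unlike the titles, share numbers across groups, and libraries of a number did not deviate together there either (6 pairs, correlations -0.017 to 0.063). A replicate block by those numbers, chosen after the data were seen, gave 0 members for 5% and for 20% mannose on the normal diet and 1 for the difference between diets (Adamts1, log2 1.21, adjusted p = 0.0294, edgeR). Low counts limit Timp1 and Mmp13 in normal-diet livers, with 24 and 14 counts in the first batch.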
